A study of Mus musculus with 12 samples.

Results

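Cohesin is the ring-shaped protein complex that holds sister chromatids together, and 10 of its genes in mouse oocytes are described here, chosen by name as the subunits and 2 regulators that act in meiosis. Each was found by its symbol in the deposited count tables, so the set holds 10 of 24562 listed genes, and 9 of them were among the 13943 genes that passed the filter on low counts and could be tested. Oocytes were taken from the antral follicles of CD-1 mice, an outbred strain, without hormonal stimulation, in 4 cohorts with 3 pools each (12 pools in all). The cohorts were PND13 (postnatal day 13), PND16 Small and PND16 Large (day 16, divided into lighter and heavier animals) and PND40 (day 40). No agent, mutation or transgene separated the cohorts. The 3 pools of a cohort were made independently, from 3 mice. The labels name the ovary as the source, and each library pools the oocytes collected, so 1 value stands for many cells. Values are CPM, the counts of a gene scaled to a common library size with TMM factors, and total counts per pool ran from 17671193 to 27418358.

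The ring is formed by a pair of SMC proteins, SMC3 and an SMC1 partner, closed by a kleisin subunit and bound by a STAG protein. Mitotic cells use SMC1A, RAD21 and STAG1 or STAG2, whereas germ cells add the meiotic versions SMC1B, REC8 and STAG3. In oocytes the rings that hold chromosomes together are loaded before birth and must last through the long arrest in prophase of meiosis I. Separase (the product of Espl1) cuts the kleisin at anaphase, and ESCO2 is an acetyltransferase that modifies SMC3 and so establishes cohesion. These roles concern protein, and the libraries measured RNA only.

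In short, 6 of the 9 tested genes differed among the cohorts, against 39.7% of all genes tested, and 1 of the 6, Rad21, passed in 3 of 22 alternative settings. RNA of Smc1a, Smc3 and Espl1 was higher in the cohorts classed as meiotically competent (PND16 Large and PND40) than in the non-competent ones (PND13 and PND16 Small). RNA of Smc1b was lower. These classes also differ in age and body weight. None of these genes passed between PND16 Large and PND16 Small, the cohorts of the same age. The pools of Smc1a, Smc1b and Espl1 did not overlap there, as for 31.5% of all genes tested, and those of Smc3 did. Esco2 was lower at PND40 than in each other cohort. Rec8 was listed at 0 in 11 of 12 pools, and Stag3 was low in every cohort and passed no test.

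The genes lie apart in the genome. In the GENCODE M21 annotation of GRCm38, the build that the labels call mm10, Smc1a spans chrX:152016428-152062694 and Stag2 chrX:42149317-42277185, both on the plus strand. Smc1b spans chr15:85064689-85131964 and Rad21 chr15:51962240-51991747, both on the minus strand, with Espl1 on the plus strand of the same chromosome at chr15:102296266-102324357. Rec8 (chr14:55618037-55625395, plus) and Esco2 (chr14:65819038-65833994, minus) share chromosome 14. Smc3 lies at chr19:53600398-53645833, Stag1 at chr9:100597798-100959375 and Stag3 at chr5:138280240-138312393, each on the plus strand. Their exons share no base with another annotated gene, except 28 bases that Stag2 shares with Gm37564 on the opposite strand. The libraries were made with a directional kit, and the strand setting of the authors' counting is not given in the sources used here.

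The promoters of the 3 SMC genes are shown because Smc1a and Smc1b encode alternative partners of SMC3 and moved in opposite directions. Each line gives the bases from 250 to 11 before the RefSeq start on GRCm38.p6, 5′ to 3′ on the gene's strand. Capitals mark the motif letters found on either strand.
Smc1a, chrX:152016178-152016417, plus strand: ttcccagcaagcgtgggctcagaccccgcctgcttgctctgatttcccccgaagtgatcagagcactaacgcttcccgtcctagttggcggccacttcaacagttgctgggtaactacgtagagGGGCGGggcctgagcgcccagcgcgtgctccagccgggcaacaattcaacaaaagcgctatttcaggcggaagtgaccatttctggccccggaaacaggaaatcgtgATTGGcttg
Smc1b, chr15:85131968-85132207, minus strand: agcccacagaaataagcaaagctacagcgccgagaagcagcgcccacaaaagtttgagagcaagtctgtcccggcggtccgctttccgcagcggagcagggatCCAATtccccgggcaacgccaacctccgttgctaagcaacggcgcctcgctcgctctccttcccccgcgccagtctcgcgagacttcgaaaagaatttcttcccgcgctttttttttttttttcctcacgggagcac
Smc3, chr19:53600146-53600385, plus strand: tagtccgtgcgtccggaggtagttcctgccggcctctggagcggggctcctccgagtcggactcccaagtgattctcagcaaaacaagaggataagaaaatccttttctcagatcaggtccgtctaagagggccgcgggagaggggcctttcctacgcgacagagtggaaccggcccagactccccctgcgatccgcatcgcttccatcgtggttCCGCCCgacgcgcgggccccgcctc

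The letters searched, on both strands, were CCAAT (bound by NF-Y), GGGCGG (a GC box), CACGTG (an E-box), TTTGAA (the CHR element of cell cycle genes), and TTTCGCGC and TTTGGCGC (bound by E2F factors). Of 32851 RefSeq promoter windows of the same 240 bases, 33.0% held CCAAT, 31.3% GGGCGG, 15.5% TTTGAA, 5.69% CACGTG, 0.24% TTTCGCGC and 0.4% TTTGGCGC. The Smc1a window held 1 CCAAT and 1 GGGCGG match, Smc1b 1 CCAAT match and Smc3 1 GGGCGG match, and no matches overlapped. None of these 3 windows held the other 4 motifs. The windows held 16 CpG dinucleotides in Smc1a and 23 each in Smc1b and Smc3, against a median of 5.0 over all windows. RefSeq promoters were matched for 7 of the 10 genes.

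A gene is said to have risen or fallen where the adjusted p of edgeR's quasi-likelihood test (Benjamini-Hochberg over all 13943 genes) was at most 0.05. It is called differentially expressed where it also changed at least 1.5-fold. Over the 4 cohorts together, 6 of 9 cohesin genes had an adjusted p of at most 0.05 for any difference, against 39.7% of all genes tested. These were Esco2 (adjusted p = 0.000782), Smc3 (0.00237), Espl1 (0.00376), Smc1b (0.0103), Smc1a (0.0112) and Rad21 (0.0485), by edgeR's quasi-likelihood test. Rad21 passed in 3 of 22 alternative settings of this test and Smc1a in 21, while Esco2, Smc3, Espl1 and Smc1b passed in all 22. Stag2 (adjusted p = 0.0804), Stag1 (0.0866) and Stag3 (0.906) did not pass. CPM is relative to the other RNA of a library, so a rise or fall need not be a change in the amount per oocyte. In bulk libraries such as these, fewer cells with a transcript and less of its RNA per cell cannot be told apart either.

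**Figure D1:**
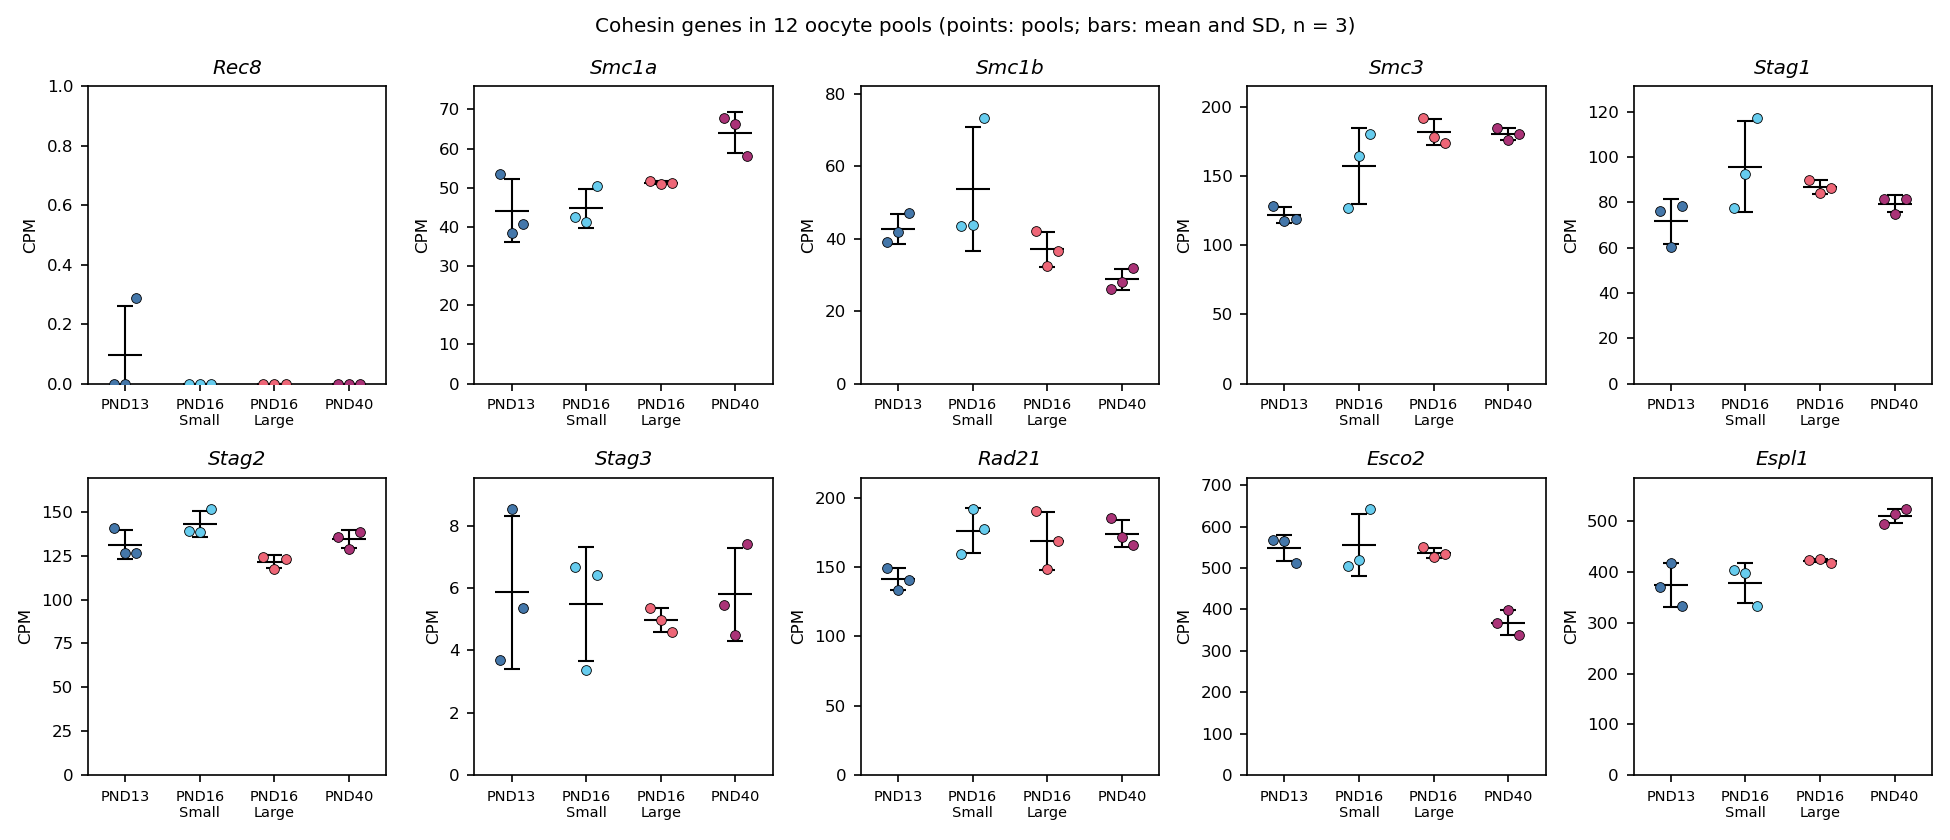
CPM of the 10 cohesin genes (y axis, starting at 0, with its own range in each panel) in each pool of the 4 cohorts (x axis). Points are pools and bars give the mean and SD of 3 pools. Esco2 lies at 339 to 399 CPM at PND40 and above 500 in all other pools, and Rec8 is at 0 in 11 of 12 pools.

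Smc1a encodes the SMC1 partner used in mitotic cells. Its levels in replicates 1, 2 and 3 were 53.4, 38.3 and 40.7 CPM in PND13, 42.5, 41.3 and 50.4 in PND16 Small, 51.7, 51.0 and 51.3 in PND16 Large, and 67.9, 66.2 and 58.1 in PND40. All PND40 pools lay above every other pool, and PND13 overlapped PND16 Small. Smc1a rose by 0.54 ± 0.13 (log2 fold change ± SE, n = 3 against 3) from PND13 to PND40 (adjusted p = 0.00578, edgeR's quasi-likelihood test), below 1.5-fold. It was also higher in PND40 than in PND16 Small, by 0.52 ± 0.13 (adjusted p = 0.00800, edgeR). Against PND16 Large the difference was 0.32 ± 0.13 with an adjusted p of 0.151 (edgeR).

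Smc1b encodes the meiotic SMC1 partner. Its levels were 39.1, 41.8 and 47.1 CPM in PND13, 43.6, 43.8 and 73.3 in PND16 Small, 42.1, 32.4 and 36.6 in PND16 Large, and 26.1, 28.1 and 32.0 in PND40. Each PND40 pool lay below every other pool, and replicate 3 of PND16 Small stood far above all others. Smc1b fell by 0.90 on the log2 scale (SE 0.18) from PND16 Small to PND40 (adjusted p = 0.00291, edgeR's quasi-likelihood test) and was called. Without replicate 3 of PND16 Small the change was -0.61 (adjusted p = 0.00673, edgeR), which is still past 1.5-fold. That pool had the lowest total count of the 12, 17671193, and was also the highest of all pools for Stag1, Stag2 and Esco2; the part of depth in this was not tested. Against PND13, Smc1b fell by 0.57 (SE 0.18, adjusted p = 0.0298, edgeR). This last result was lost without PND13 replicate 3 (adjusted p = 0.109), PND40 replicate 1 (0.107) or PND40 replicate 2 (0.0857), by edgeR.

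The partners thus moved in opposite directions. Their promoters, printed above, both hold 1 CCAAT match, a motif found in 33.0% of all windows. A link between motif and RNA level was not tested. Levels of different genes are compared per kb of length. Within a pool, the ratio of Smc1b to Smc1a, each in CPM per kb of exon, was 1.04 to 1.65 in PND13, 1.46 to 2.07 in PND16 Small, 0.907 to 1.16 in PND16 Large and 0.549 to 0.786 in PND40. With the longest coding transcript as the length, the same ratio ran from 0.849 to 1.34, 1.19 to 1.69, 0.737 to 0.944 and 0.446 to 0.639. In PND40 Smc1a was the higher of the pair in every pool under both lengths, and in PND16 Small Smc1b was. In PND13 and PND16 Large the order depended on the pool or on the length. The ratio is a description and was not tested.

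Smc3 encodes the SMC subunit common to all cohesin rings. Its levels were 128, 118 and 119 CPM in PND13, 127, 165 and 180 in PND16 Small, 192, 179 and 174 in PND16 Large, and 185, 177 and 180 in PND40. PND16 Large and PND40 pools lay above all PND13 pools, whereas PND16 Small spread over the gap between them. Smc3 rose from PND13 by 0.58 ± 0.10 to PND16 Large (adjusted p = 0.00185) and by 0.57 ± 0.10 to PND40 (adjusted p = 0.00115), by edgeR's quasi-likelihood test. Both changes held without any 1 pool. From PND13 to PND16 Small the difference was 0.37 ± 0.10 (adjusted p = 0.0801, edgeR), and between PND16 Large and PND40 it was -0.01 ± 0.10 (adjusted p = 0.974, edgeR).

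Of the kleisins, which close the ring, Rec8 encodes the meiotic form and Rad21 the general one. Rec8 had 7 counts in replicate 3 of PND13, or 0.287 CPM, and 0 counts in each of the other 11 pools. A count of 0 allows up to 3 counts, a level of 0.110 to 0.178 CPM depending on the pool; this limit covers counting error only. None of the 50-base stretches in its annotated transcripts occurred in another gene. Rec8 was removed by the filter on low counts, so it was in no test and no fold change is given. How the authors' annotation outlined the gene is not given in the sources used here, so the 0 says that the table lists no reads for Rec8 and may not measure its RNA.

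Rad21 was measured at 149, 133 and 141 CPM in PND13, 159, 192 and 178 in PND16 Small, 190, 148 and 169 in PND16 Large, and 185, 172 and 166 in PND40. PND13 was the lowest cohort, with 1 PND16 Large pool inside its range. Rad21 rose by 0.30 ± 0.10 from PND13 to PND40 (adjusted p = 0.0273, edgeR's quasi-likelihood test). The adjusted p was 0.107 without PND13 replicate 2, 0.103 without PND40 replicate 1, 0.0722 without PND13 replicate 3, 0.0591 without PND40 replicate 2 and 0.0526 without PND16 Large replicate 3 (edgeR), and 0.0676 with total counts in place of TMM. Its differences from PND13 were 0.32 ± 0.10 in PND16 Small (adjusted p = 0.0958, edgeR) and 0.26 ± 0.10 in PND16 Large (adjusted p = 0.0627, edgeR).

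Another kleisin gene, Rad21l, belongs to meiotic prophase and was in the list of partner genes. Its levels were 14.9, 20.0 and 14.7 CPM in PND13, 11.5, 10.8 and 16.0 in PND16 Small, 11.3, 10.02 and 9.99 in PND16 Large, and 5.49, 7.84 and 8.01 in PND40. PND40 lay below every other cohort, without overlap. Rad21l fell by 1.21 on the log2 scale (SE 0.20) from PND13 to PND40 (adjusted p = 0.000691) and by 0.84 (SE 0.20) from PND16 Small (adjusted p = 0.00776, edgeR's quasi-likelihood test). Within a pool, Rad21l per kb of exon was 0.255 to 0.382 of Rad21 in PND13, 0.144 to 0.229 in PND16 Small, 0.151 to 0.172 in PND16 Large and 0.0756 to 0.123 in PND40.

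**Figure D2:**
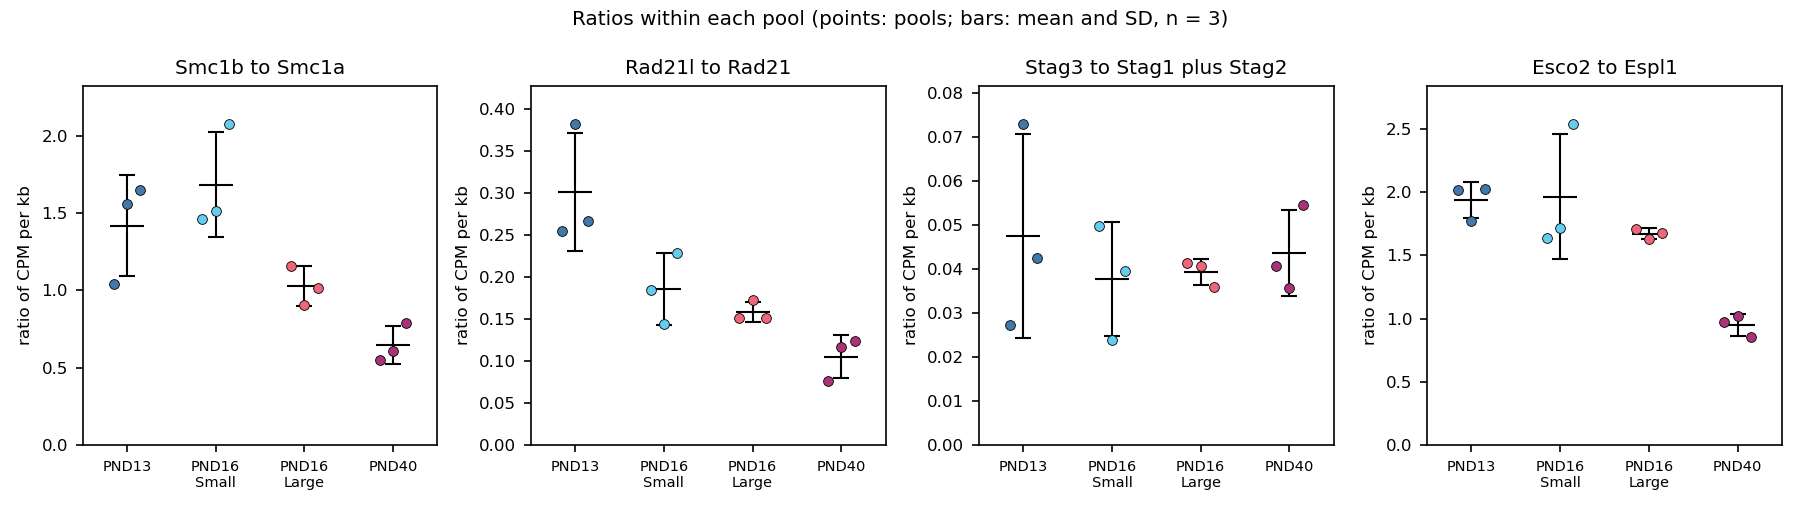
Ratios of CPM per kb of exon (y axis, starting at 0) within each pool of the 4 cohorts (x axis). Points are pools and bars give the mean and SD of 3 pools. Smc1b to Smc1a is 0.549 to 0.786 in PND40 and at least 1.04 in PND13, and Rad21l to Rad21 is 0.0756 to 0.123 in PND40.

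The STAG proteins bind the closed ring, Stag1 and Stag2 in all cells and Stag3 in meiosis. Stag1 was measured at 76.0, 60.3 and 78.4 CPM in PND13, 77.5, 92.5 and 117 in PND16 Small, 90.0, 84.1 and 86.5 in PND16 Large, and 81.6, 74.9 and 81.6 in PND40. PND16 Small was the widest of its groups and overlapped all the others. No Stag1 comparison passed, and the largest difference was 0.42 ± 0.13 between PND16 Small and PND13 (adjusted p = 0.109, edgeR's quasi-likelihood test).

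Stag2 was measured at 141, 126 and 127 CPM in PND13, 139, 138 and 151 in PND16 Small, 124, 117 and 123 in PND16 Large, and 135, 129 and 139 in PND40. PND16 Large lay below all other pools. Stag2 fell by 0.23 (SE 0.07) from PND16 Small to PND16 Large (adjusted p = 0.0461, edgeR's quasi-likelihood test). This adjusted p rose above 0.05 in 7 of 11 other settings and without any 1 of 10 of the 12 pools, with adjusted p from 0.0503 to 0.160 (edgeR) in the latter; the exceptions were PND13 replicates 1 and 2.

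Stag3 was the lowest of the tested members. Its levels were 3.68, 8.52 and 5.36 CPM in PND13, 6.66, 3.37 and 6.41 in PND16 Small, 5.36, 4.97 and 4.58 in PND16 Large, and 5.45, 4.50 and 7.42 in PND40. All 4 cohorts overlapped. Its log2 differences between cohorts ran from -0.24 to 0.22, with an SE of 0.33 for each, so that changes of this size were not detectable in these pools. Per kb of exon, Stag3 was 0.0273 to 0.0728 of the sum of Stag1 and Stag2 in PND13 and 0.0357 to 0.0546 of it in PND40.

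Esco2, which encodes an acetyltransferase of SMC3, was the member of highest CPM in PND13. Its levels were 569, 565 and 513 CPM in PND13, 504, 520 and 642 in PND16 Small, 551, 526 and 535 in PND16 Large, and 367, 399 and 339 in PND40. The first 3 cohorts overlapped, and all PND40 pools lay below them. Esco2 fell by 0.58 (SE 0.09) from PND13 to PND40 (adjusted p = 0.000486) and by 0.55 (SE 0.09) from PND16 Large to PND40 (adjusted p = 0.00439, edgeR's quasi-likelihood test). From PND16 Small to PND40 it fell by 0.59 (SE 0.09, adjusted p = 0.000465, edgeR) and was called. Its 3 falls to PND40 kept an adjusted p of at most 0.0271 under every setting and without any 1 pool. Their sizes lie close to the 1.5-fold limit, so the call, though not the direction, depended on the setting.

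Espl1, the gene of separase, moved the other way. Its levels were 372, 419 and 333 CPM in PND13, 404, 399 and 333 in PND16 Small, 424, 426 and 419 in PND16 Large, and 495, 514 and 524 in PND40. All PND40 pools were above all others, and PND16 Large lay above PND16 Small. Espl1 rose by 0.45 ± 0.09 from PND13 to PND40 (adjusted p = 0.00195) and by 0.43 ± 0.09 from PND16 Small (adjusted p = 0.00272, edgeR's quasi-likelihood test). From PND16 Large to PND40 the difference was 0.27 ± 0.09 (adjusted p = 0.0820, edgeR). The ratio of Esco2 to Espl1 within a pool, in CPM per kb of exon, was 1.78 to 2.03 in PND13, 1.64 to 2.54 in PND16 Small, 1.63 to 1.71 in PND16 Large and 0.851 to 1.02 in PND40.

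**Figure D3:**
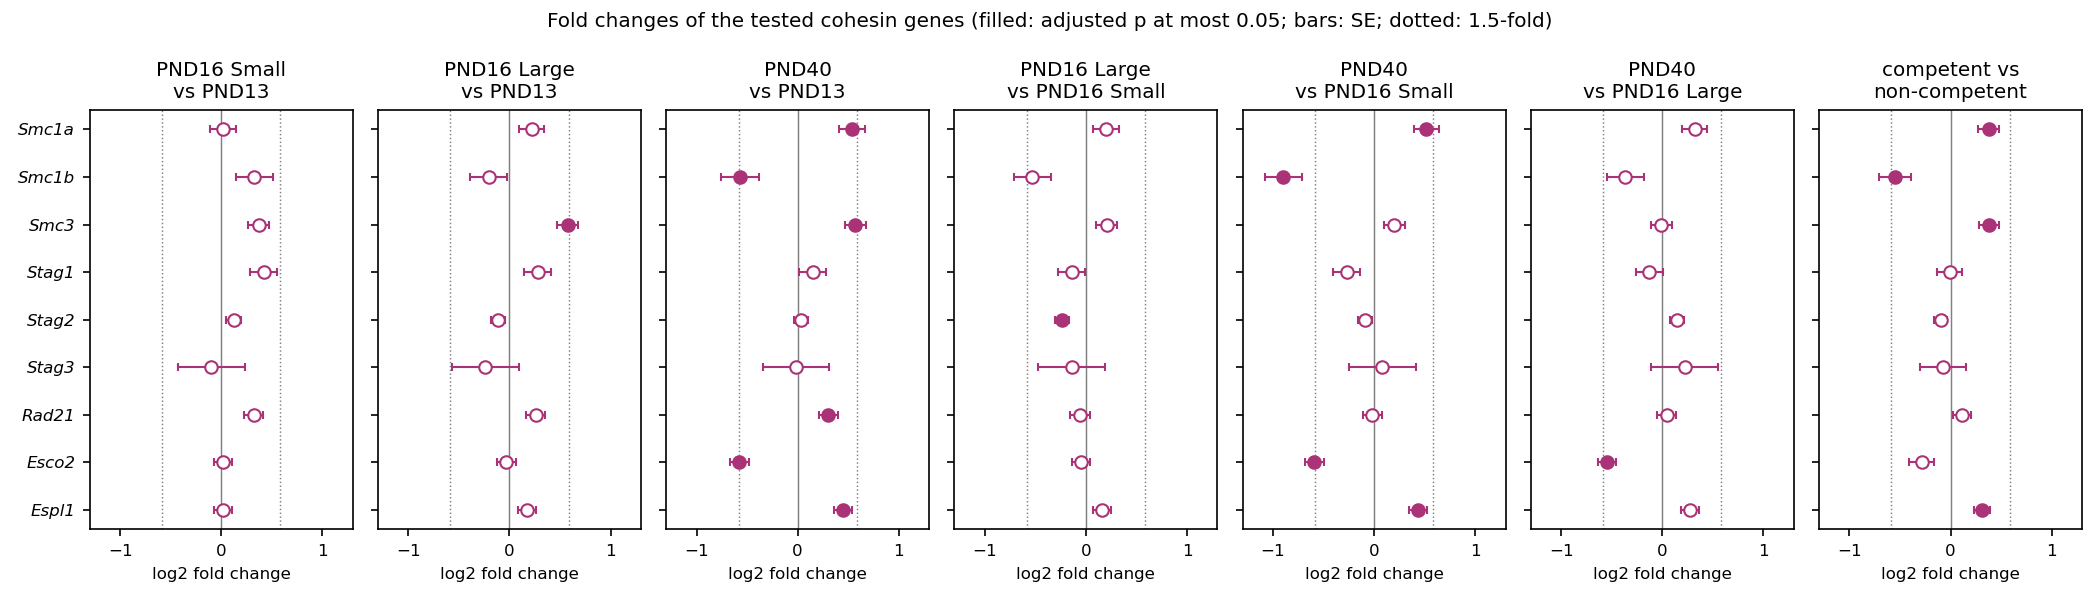
Log2 fold changes with SE (x axis) of the 9 tested cohesin genes (y axis) in 6 comparisons of cohorts and in competent against non-competent oocytes. Filled points have an adjusted p of at most 0.05 and dotted lines mark 1.5-fold. Smc1b and Esco2 lie past 1.5-fold in PND40 vs PND16 Small, at -0.90 and -0.59.

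By comparison, the counts were as follows, each set beside the share of all 13943 genes past the same adjusted p of 0.05. From PND13 to PND16 Small none of 9 passed in edgeR's test (0.925% of all genes). In edgeR 3 had an unadjusted p under 0.05, and 3 passed in DESeq2. The shares of all genes past these limits are not given here, so neither count sets the cohesin genes apart. DESeq2 also called more of all genes than edgeR in this comparison, 357 against 52. Those calls use the 1.5-fold criterion, which the member counts do not. From PND13 to PND16 Large 1 rose (Smc3) and none fell, where 25.6% of all genes passed, 12.6% higher and 13% lower. From PND16 Small to PND16 Large 1 fell (Stag2) and none rose, where 12.3% passed, 4.98% higher and 7.32% lower. From PND13 to PND40 4 rose and 2 fell, where 33.1% passed, 16.3% higher and 16.7% lower. From PND16 Small to PND40 2 rose and 2 fell, where 30.2% passed, 14.5% higher and 15.7% lower. From PND16 Large to PND40 1 fell (Esco2) and none rose, where 6.83% passed, 3.59% higher and 3.24% lower. These comparisons share pools, since each cohort enters 3 of them.

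With the 1.5-fold criterion, only PND40 vs PND16 Small held called members, 2 of 9 against 17.2% of all genes. The other comparisons had 0 of 9, against 0.373% of all genes for PND16 Small vs PND13, 13.3% for PND16 Large vs PND13, 18.9% for PND40 vs PND13, 6.19% for PND16 Large vs PND16 Small and 3.66% for PND40 vs PND16 Large. The pools of the groups did not overlap for 1 of 9 members in PND16 Small vs PND13 (18.1% of all genes), 3 in PND16 Large vs PND13 (45.5%) and 6 in PND40 vs PND13 (50.8%). The same count was 4 in PND16 Large vs PND16 Small (31.5%), 4 in PND40 vs PND16 Small (43.9%) and 6 in PND40 vs PND16 Large (39.3%).

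The comparison of competent with non-competent oocytes (6 pools against 6) grouped the cohorts by meiotic competence, as the paper did. Competence was assigned by cohort and was not measured in these pools. The groups also differ in age and body weight, and the parts of these cannot be told apart. Between the cohorts of the same age, PND16 Large and PND16 Small, Stag2 alone passed. Smc1b had a mean of 53.6 ± 17.1 CPM (SD, n = 3) in PND16 Small and 37.0 ± 4.85 in PND16 Large, without overlap of pools. For Smc1a and Espl1 the PND16 Large pools lay above those of PND16 Small, and for Smc3 they overlapped. With 3 pools per cohort, not passing does not show that a difference is absent. Of 9 cohesin genes, 3 rose and 1 fell in competent oocytes at an adjusted p of at most 0.05. Of all genes, 30.7% passed (14.2% higher and 16.5% lower). No cohesin gene reached 1.5-fold, against 15% of all genes. The pools of the groups overlapped for all 9, and did not for 14.7% of all genes. Smc1a rose by 0.38 ± 0.11, from a mean of 44.4 ± 6.02 (SD, n = 6) to 57.7 ± 7.71 CPM (adjusted p = 0.0152, edgeR's quasi-likelihood test). Smc3 rose by 0.38 ± 0.10 (adjusted p = 0.0110) and Espl1 by 0.31 ± 0.08 (adjusted p = 0.0105), by edgeR. Smc1b fell by 0.55 (SE 0.15), from 48.1 ± 12.6 to 32.9 ± 5.80 CPM (adjusted p = 0.0152, edgeR). Esco2 had a log2 fold change of -0.29 ± 0.12 (adjusted p = 0.0860, edgeR), and its 3 PND16 Large pools lay among the non-competent ones. The median log2 fold change over the 9 genes was -0.0084, and -0.0046 over all genes tested.

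Markers of oocytes, of other cells and of cell division were examined beside these results. Of the 15 oocyte markers, the 2 of highest mean were Gdf9 and Bmp15, which encode factors secreted by oocytes. Gdf9 was at 3606 ± 410 CPM (SD, n = 3) in PND13 and 3983 ± 48.0 in PND40, and Bmp15 at 3221 ± 291 and 3781 ± 197. Not all of the list was high, since Figla had means of 11.3 CPM in PND13 and 8.05 in PND40. The sum of all 15 oocyte markers was lowest in PND40, at 16626 to 17253 CPM against 18048 to 21281 in PND13. In PND40 vs PND13, 4 of the 15 rose and 6 fell (16.3% and 16.7% of all genes), among the latter Zp2 (3876 to 2169 CPM) and Nlrp5 (2117 to 1239 CPM), named after their values were seen. The summed level of 15 granulosa and cumulus cell markers was 143 to 760 CPM in PND13 and 200 to 700 in PND16 Small, against 207 to 221 in PND16 Large and 175 to 196 in PND40. It was highest in PND13 replicates 3 and 1 and PND16 Small replicate 2. Of 14 such markers tested, 4 fell and none rose in competent oocytes, where 16.5% of all genes fell and 14.2% rose, and Ptx3, the other one, was at 0 in 11 pools. The 2 of highest mean were Nr5a2 (126 ± 32.8 CPM in PND13 and 91.1 ± 2.50 in PND40) and Inha (80.9 ± 71.8 and 12.1 ± 0.976). Nr5a2 was at 87.9 CPM or more in every PND13 pool and at 88.2 to 92.7 in PND40, so the lowest sums were largely this gene. Inha went down to 2.34 CPM in PND13. The 6 blood and immune markers summed to 53.1 to 65.1 CPM over all pools, most of it Pecam1, with the haemoglobin genes Hba-a1 and Hbb-bs at 0 in all 12. The 9 theca and stroma markers summed to 8.08 to 60.3 CPM, highest in PND13 replicate 3. The 5 dividing cell markers summed to 719 to 1170 CPM, highest in PND16 Small replicate 3, the pool that stood apart for Smc1b. Their part in that value was not tested. They still summed to 719 CPM in PND13 replicate 2, where the granulosa and cumulus sum was lowest, at 143 CPM. Which cells their RNA came from was not tested. Without the 3 pools of highest marker level, the changes of Smc1a, Smc3 and Esco2 given above kept an adjusted p of at most 0.05. In that setting, which leaves PND13 a single pool assumed to vary like the others, PND40 vs PND13 gave -0.54 for Smc1b (adjusted p = 0.175), 0.39 for Rad21 (0.0801) and 0.29 for Espl1 (0.0980) in edgeR. Espl1 in competent oocytes was then 0.28 (adjusted p = 0.0791, edgeR). The part of other cells in the results was not tested further.

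Levels per kb of exon, which allow genes to be compared, spanned a wide range. In PND13 the order from the top was Esco2 (82.6 CPM per kb), Espl1 (42.8), Rad21 (33.4), Smc3 (21.98), Stag2 (15.9), Smc1b (10.5), Smc1a (7.65), Stag1 (6.07), Stag3 (1.02) and Rec8. Neighbours in this order did not overlap between pools, except Smc1a and Stag1. In PND40 Espl1 (58.4) and Esco2 (55.4) came first with overlapping pools, then Rad21 (41.2), Smc3 (32.6), Stag2 (16.2), Smc1a (11.1), Smc1b (7.10) and Stag1 (6.74), the last pair overlapping, and Stag3 (1.01). With the longest coding transcript as the length, Esco2 stayed above Espl1 in PND40, at 126 against 76.7 CPM per kb, and the mean of Stag1 moved above that of Smc1b in all 4 cohorts. The order of the top 5 genes was otherwise the same under both lengths in PND13 and PND40.

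**Figure D4:**
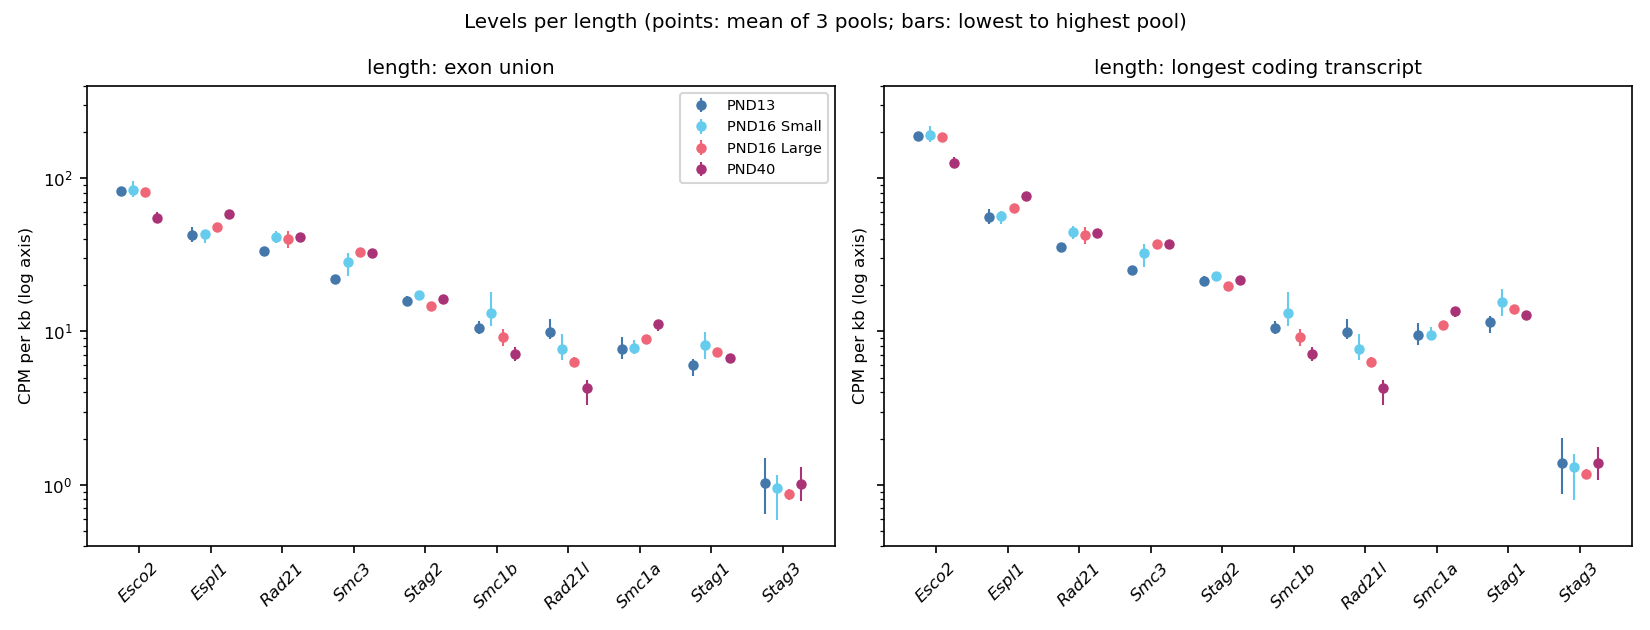
CPM per kb (y axis, log scale) of 9 cohesin genes and Rad21l (x axis) in the 4 cohorts, with the exon union (left) or the longest coding transcript (right) as the length. Points are means of 3 pools and bars run from the lowest to the highest pool; Rec8, at 0 in 3 cohorts, is not drawn. Esco2 falls from 82.6 to 55.4 CPM per kb of exon between PND13 and PND40, and Stag3 stays near 1.

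Around the ring act the loader NIPBL, the release factor WAPL, the PDS5 proteins, which bind the ring and regulate its acetylation and release, and the shugoshins, which with the phosphatase PP2A shield meiotic cohesin from separase. In the list of 20 such partner genes, 4 rose and 3 fell in competent oocytes, near the 14.2% and 16.5% of all genes tested that did; 2 were called, both lower (Pds5a and Rad21l), against 11.2% of all genes called lower. The median log2 fold change of the list was 0.06. Pds5a was measured at 115, 103 and 121 CPM in PND13, 128, 90.1 and 112 in PND16 Small, 75.7, 70.7 and 69.5 in PND16 Large, and 58.7, 62.5 and 56.2 in PND40. All competent pools lay below all non-competent ones. Pds5a fell by 0.77 (SE 0.10) in competent oocytes (adjusted p = 8.27e-05) and Rad21l by 0.74 (SE 0.19, adjusted p = 0.00818, edgeR's quasi-likelihood test). Named after their values were seen, the other partners that passed were Esco1, the second SMC3 acetyltransferase (0.57 ± 0.08), Ppp2r5c (0.42 ± 0.09) and Ppp2r1a (0.18 ± 0.06), subunits of PP2A, Cdca5, the gene of sororin (0.27 ± 0.08), and Pds5b (-0.41 ± 0.11).

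Esco1 was measured at 205, 195 and 179 CPM in PND13, 212, 142 and 183 in PND16 Small, 287, 289 and 265 in PND16 Large, and 289, 280 and 251 in PND40. Its competent pools all lay above its non-competent ones, and its 2 competent cohorts overlapped, whereas of Esco2 the PND40 pools alone lay below the non-competent ones. The loader gene Nipbl (0.03 ± 0.15), Wapl (0.19 ± 0.09), Sgo1 (0.21 ± 0.11), Sgo2a (-0.12 ± 0.09) and Bub1 (-0.04 ± 0.08) did not pass in competent oocytes. Over the other comparisons, the partner genes that rose and fell numbered 4 and 2 in PND16 Large vs PND13 (25.6% of all genes passed), 5 and 3 in PND40 vs PND13 (33.1%), 1 and 1 in PND16 Large vs PND16 Small (12.3%), and 3 and 5 in PND40 vs PND16 Small (30.2%). None passed in PND16 Small vs PND13 or PND40 vs PND16 Large.

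The other SMC complexes are condensin, which compacts chromosomes, and the SMC5/6 complex, which acts in DNA repair. Of 13 of their genes, 5 rose and 2 fell in competent oocytes, with a median log2 fold change of 0.17, and Smc2 alone was called; of all genes tested, 30.7% passed and 15% were called. Smc2, the SMC subunit common to both condensins, was measured at 125, 109 and 135 CPM in PND13, 124, 104 and 140 in PND16 Small, 79.4, 76.4 and 83.5 in PND16 Large, and 69.8, 71.6 and 70.8 in PND40. Competent and non-competent pools did not overlap. Smc2 fell by 0.71 (SE 0.08, adjusted p = 4.87e-05, edgeR's quasi-likelihood test), while its partner Smc4 differed by 0.05 ± 0.12 (adjusted p = 0.779, edgeR). The 3 non-SMC subunits of the SMC5/6 complex in the list, named after their values were seen, all rose. Nsmce1 rose by 0.55 ± 0.14, Nsmce4a by 0.46 ± 0.08 and Nsmce2 by 0.41 ± 0.06. Smc5 had a mean of 31.3 ± 5.44 CPM (SD, n = 6) in non-competent pools and 32.9 ± 6.38 in competent ones. Smc6 was at 175 ± 25.9 and 182 ± 7.35, and the pools of both genes overlapped.

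**Figure D5:**
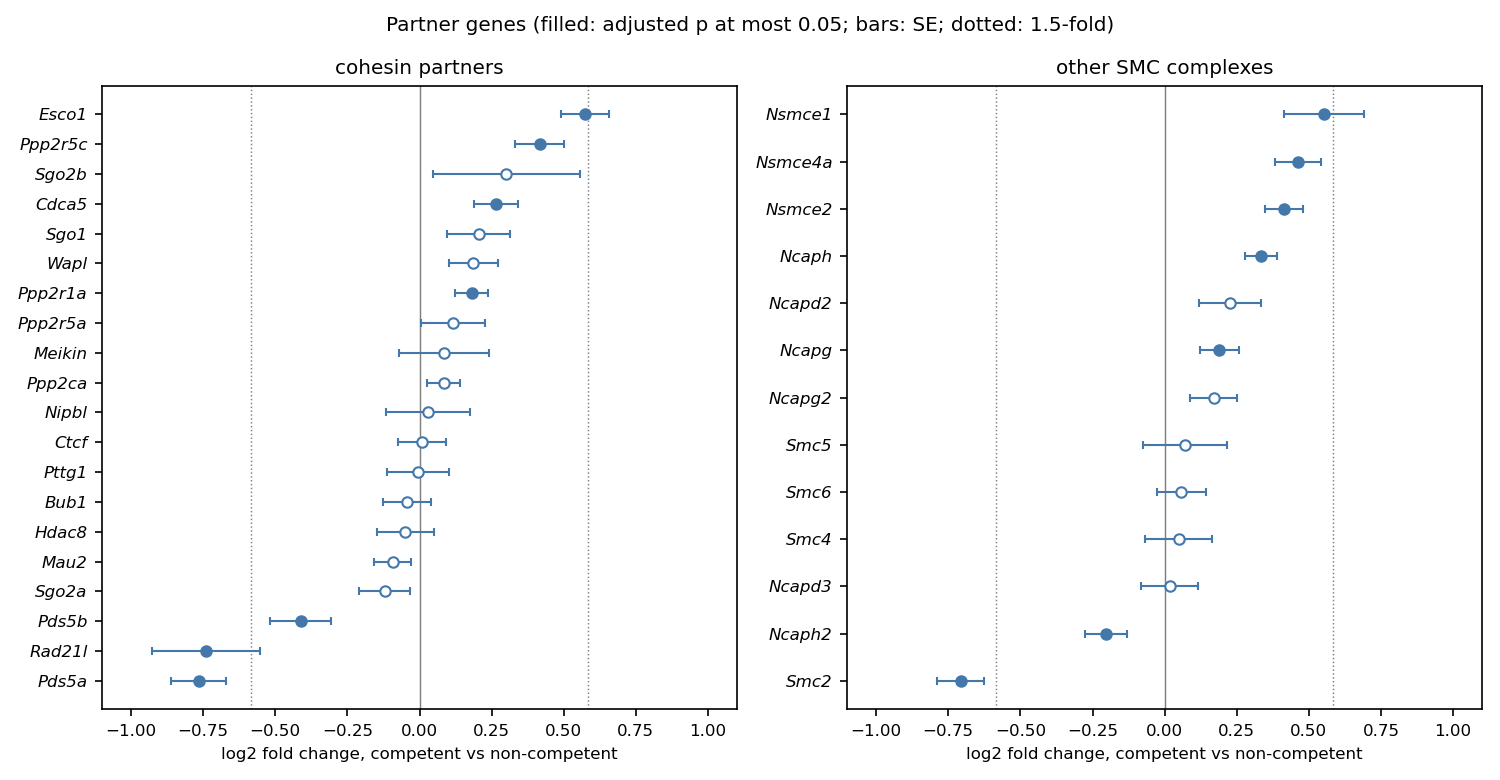
Log2 fold changes with SE (x axis) in competent against non-competent oocytes for 20 cohesin partner genes (left) and 13 genes of other SMC complexes (right), in order of size. Filled points have an adjusted p of at most 0.05 and dotted lines mark 1.5-fold. Pds5a (-0.77), Rad21l (-0.74) and Smc2 (-0.71) lie past 1.5-fold.

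Across the 12 pools, the genes whose log2 CPM followed that of Smc1b most closely, among 11947 genes, were Dync2h1 (Pearson r = 0.96), Cep350 (0.956) and Erlec1 (0.941). For Stag3 they were Parp2 (0.95), Nol6 (0.89) and Gfra4 (0.873). These are the top ranks of many values over pools that share cohort and depth, given as a description, and for Rec8 no such rank was made since it was not tested.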

How the data were processed

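RNA-Seq data of 12 oocyte pools were used, with cohort and replicate number from the deposited sample labels. Ribosomal RNA was depleted and directional libraries were prepared. The authors deposited raw counts of reads per gene for 24562 genes, and the same counts as log2 values, the log2 of the count divided by a size factor of the pool, plus 1 (the authors' factors differed from DESeq2's by at most 0.0162%). The submitters' processing notes name STAR, HTSeq, DESeq2 and mm10, without versions. No sample column was left out (0 unused).

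Tests used edgeR 4.0.16, DESeq2 1.42.0 and limma 3.58.1 under R 4.3.3; Python 3.11.15 did the rest. Genes were kept by filterByExpr (minimum count 10) and scaled by TMM. The 6 pairs of cohorts and the test of any difference came from 1 robust quasi-likelihood model of the 4 cohorts, and competence from a model of 2 groups. The SE is approximate, the size of the log2 fold change over the square root of F. Scripts were tested on simulated data. Pools of a cohort differed by more than sampling noise (chi-square per gene 9.17 to 50.6). Reads carry no molecular identifiers. The limit given for Rec8 covers counting error only, whereas each SE also takes in the spread between pools.

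The members and lists were chosen with earlier results of these data known. Named genes were the 10 members, up to 4 called genes of each partner list per direction in the competence comparison, the 3 genes most correlated with Smc1b and with Stag3 (log2 CPM, prior count 2, mean of at least 1 CPM; planned for Rec8 too, which was not tested), and the 2 oocyte and 2 granulosa markers of highest mean. Alternatives were DESeq2, limma on the deposited log2 values (pseudocount 1) or with 0.1, other scalings, no or a stricter filter (at least 1 CPM in at least 6 pools), only the cohorts compared, no fold criterion, a replicate block, each pool left out, and, chosen after seeing the data, the 3 pools of highest granulosa marker level left out.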

Additional observations from a re-analysis of the deposited data

Results flagged for a closer look

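In Dixon's test of the highest and lowest pool among the 6 competent and the 6 non-competent pools, applied to 9 genes (18 groups), 2 pools stood apart. Chance gives about 1 in 20 groups where all pools come from a single population. Each group here joins 2 cohorts, so that rate is only approximate. Smc1b was at 73.3 CPM in replicate 3 of PND16 Small, against 47.1 in the next non-competent pool. Stag3 was at 7.42 CPM in replicate 3 of PND40, against 5.45 in the next competent pool. Without the first pool, Smc1b in competent oocytes had a log2 fold change of -0.40 (adjusted p = 0.0185, edgeR's quasi-likelihood test).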

How the results depend on the processing

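No cohesin gene that passed the test in a comparison changed direction under any other setting or without any 1 pool. Counts of called members moved most at the 1.5-fold limit. Without that criterion, 1 member was called in PND16 Large vs PND13, 6 in PND40 vs PND13, 1 in PND16 Large vs PND16 Small, 1 in PND40 vs PND16 Large, 4 in PND40 vs PND16 Small and 4 in competent oocytes. In PND40 vs PND13 the count of 0 (2637 of all 13943 genes called) became 2 with total counts (2630 of 13943) or no filter (2455 of 19461). It was also 2 with the stricter filter (2476 of 11786) or with only these cohorts (2781 of 13333). Without the 3 pools of highest granulosa marker level, 1 member was called in competent oocytes (1597 of 14859 genes). That setting leaves PND13 a single pool, so counts against PND13 are not given. In PND40 vs PND16 Small the count of 2 (2395 of 13943) became 1 with upper quartile or total counts (2413 of 13943 with each). Leaving out each pool gave 0 to 0 called members in PND16 Small vs PND13 (4 to 817 of all genes). The range was 0 to 1 in PND16 Large vs PND13 (1154 to 2061) and 0 to 3 in PND40 vs PND13 (1934 to 2915). It was 0 to 1 in PND16 Large vs PND16 Small (333 to 1144) and in PND40 vs PND16 Large (246 to 662). In PND40 vs PND16 Small it was 2 to 2 (1850 to 2558) and in competent oocytes 0 to 1 (1703 to 2231). For any difference among cohorts it was 4 to 7 (4234 to 6574). These fits tested 14259 to 14339 genes. Pools with the same replicate number did not deviate together (r above 0.1 in 0 of 18 pairs). With the number as a replicate block, Stag2 in PND16 Large vs PND16 Small lost its adjusted p (0.0546, edgeR). The count for any difference was then 5 (4952 of 13943 genes), and 2 members stayed called in PND40 vs PND16 Small (2236 of 13943). Over all genes, PND16 Small vs PND13 had 52 called with edgeR, 357 with DESeq2, 25 with total counts 2 with only these cohorts and 10 with the replicate block, and from 4 (without PND13 replicate 3) and 5 (without PND16 Small replicate 3) to 817 (without PND16 Small replicate 1) on leaving out 1 pool. With total counts the all-gene median of the log2 fold changes was -0.12 in PND16 Small vs PND13 and -0.13 in PND16 Large vs PND13, and 24% of the calls in the former were higher, against 48.1% with TMM. The SE of 0.33 for Stag3 limits what could be detected for it.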
